A study of Mus musculus with 48 samples.

Results

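The neuropeptide genes of the hippocampus described here are Npy, Sst, Vip, Cck, Penk, Pdyn, Tac1, Tac2, Crh and Adcyap1, 10 of the 48709 gene identifiers in the larger RNA count tables. The rule names them by gene symbol and holds no measured value, but they were chosen with earlier results of these data known. All 10 passed the filter on low counts in every RNA comparison. The study compared mice labelled Setd1b cKO (conditional knockout) with mice labelled control, all adult C57BL/6J animals 4 to 6 months old. RNA was sequenced from hippocampal CA neurons (3 libraries per genotype) and from whole hippocampal CA tissue (6 per genotype), and 30 chromatin immunoprecipitation (ChIP-seq) libraries of sorted CA neuronal nuclei covered 4 histone marks, H3K4me3, H3K4me1, H3K27ac and H3K9ac. The published study describes the deletion as driven by Cre recombinase from the Camk2a promoter, which is active in forebrain excitatory neurons after birth, so inhibitory neurons and glia are not the cells targeted; the labels do not name the driver. The labels also do not say whether replicates are separate animals, so p-values measure the spread between these libraries, which may be technical.

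Neuropeptides are made as precursor proteins, cut by convertases inside dense-core vesicles, and released to act on G-protein-coupled receptors. In the hippocampus Npy, Sst, Vip, Tac1, Tac2 and Crh are known mainly from classes of inhibitory interneurons, while the opioid precursor genes Penk (enkephalins) and Pdyn (dynorphins) are known from principal cells, with dynorphin typical of dentate granule cells and their mossy fibres. Cck is made by basket interneurons and also, as mRNA, by pyramidal cells, and Adcyap1 encodes the peptide PACAP. Setd1b encodes an enzyme that methylates lysine 4 of histone H3 (H3K4), a mark of promoters in its trimethylated form.

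Counted reads per library came to 55735204 to 69071100 for neuron RNA, and 14878128 to 20100286 for whole CA RNA, whose low genes therefore carry more counting error. The mitochondrial share of counts was 0.00814 to 0.0144% in the first material and 3.41 to 7.05% in the second. Markers of CA pyramidal cells were all detected in neuron RNA (8 of 8, summing to 2760 to 3840 CPM, counts per 1000000 reads, in each library), and the summed level of 5 astrocyte markers was 25.4 to 32.1 CPM there against 1340 to 1730 CPM in whole CA RNA. The targeted gene was not lower in libraries labelled cKO. It was called higher in whole CA RNA and was not called in neuron RNA. Setd1b averaged 64.6 ± 6.16 CPM (SD, n = 3) in neuron libraries labelled cKO and 54.5 ± 9.62 in those labelled control (log2 fold change 0.25, SE 0.13, adjusted p = 0.361), and 59.4 ± 6.29 against 39.6 ± 8.68 CPM (n = 6) in whole CA RNA (0.59, SE 0.11, adjusted p = 0.00415). The labels do not say which exons were removed, so gene totals do not settle whether the deletion took place, and every direction below is that of the libraries labelled cKO over those labelled control. The isolation of the neuron RNA is not given in the sources used here, and the extraction protocol in the labels names whole tissue. How the preparation of the 2 materials differed is thus known only from their labels. The mitochondrial shares and astrocyte marker levels above did differ between them.

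In neuron RNA 3 of the 10 genes were lower in libraries labelled cKO and none was higher: both opioid precursor genes, Penk and Pdyn, and Cck. Against all genes tested, 2.75% were called in this comparison (adjusted p under 0.05), 2% lower and 0.744% higher. The median log2 fold change of the 10 genes was -0.26, and over all genes tested it was 0.02. CPM values are scaled to library totals adjusted by TMM, edgeR's normalization between libraries.

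Pdyn (ENSMUSG00000027400, chr2:129686549-129699938 in GRCm38.p6), the precursor of the dynorphins, which act on the kappa opioid receptor, changed most. The libraries labelled control measured 9.23, 8.79 and 9.11 CPM, and those labelled cKO 3.98, 2.88 and 4.67 CPM. The groups did not overlap, and the control libraries lay close together. The mean fell from 9.05 ± 0.225 to 3.84 ± 0.901 CPM (SD, n = 3 each), 2.36-fold lower (log2 fold change -1.24, SE 0.16, adjusted p = 0.00309).

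Penk (ENSMUSG00000045573, chr4:4133536-4138815), the precursor of the enkephalins, which act on delta and mu opioid receptors, measured 34.7, 34.5 and 31.7 CPM in control neuron libraries and 21, 19.8 and 22 CPM in those labelled cKO. Every library labelled cKO was below every control library. The mean was 33.6 ± 1.68 CPM against 20.9 ± 1.13 CPM, 1.61-fold lower (log2 fold change -0.69, SE 0.09, adjusted p = 0.00309).

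Cck (ENSMUSG00000032532, chr9:121489824-121495694), the cholecystokinin precursor, measured 145, 143 and 132 CPM in control neuron libraries and 89.4, 96.8 and 95.4 CPM in those labelled cKO, again without overlap. The mean fell from 140 ± 7.01 to 93.9 ± 3.91 CPM, 1.49-fold lower (log2 fold change -0.58, SE 0.08, adjusted p = 0.00574). Gene groups that do not overlap were common at 3 against 3: 23.9% of all genes tested had none, 12.4% with the libraries labelled cKO below and 11.4% with them above. Cck overlaps the interval of the RefSeq gene Gm38661, and the strand setting of the counting is not given in the sources used here, so reads of both cannot be told apart.

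**Figure D1:**
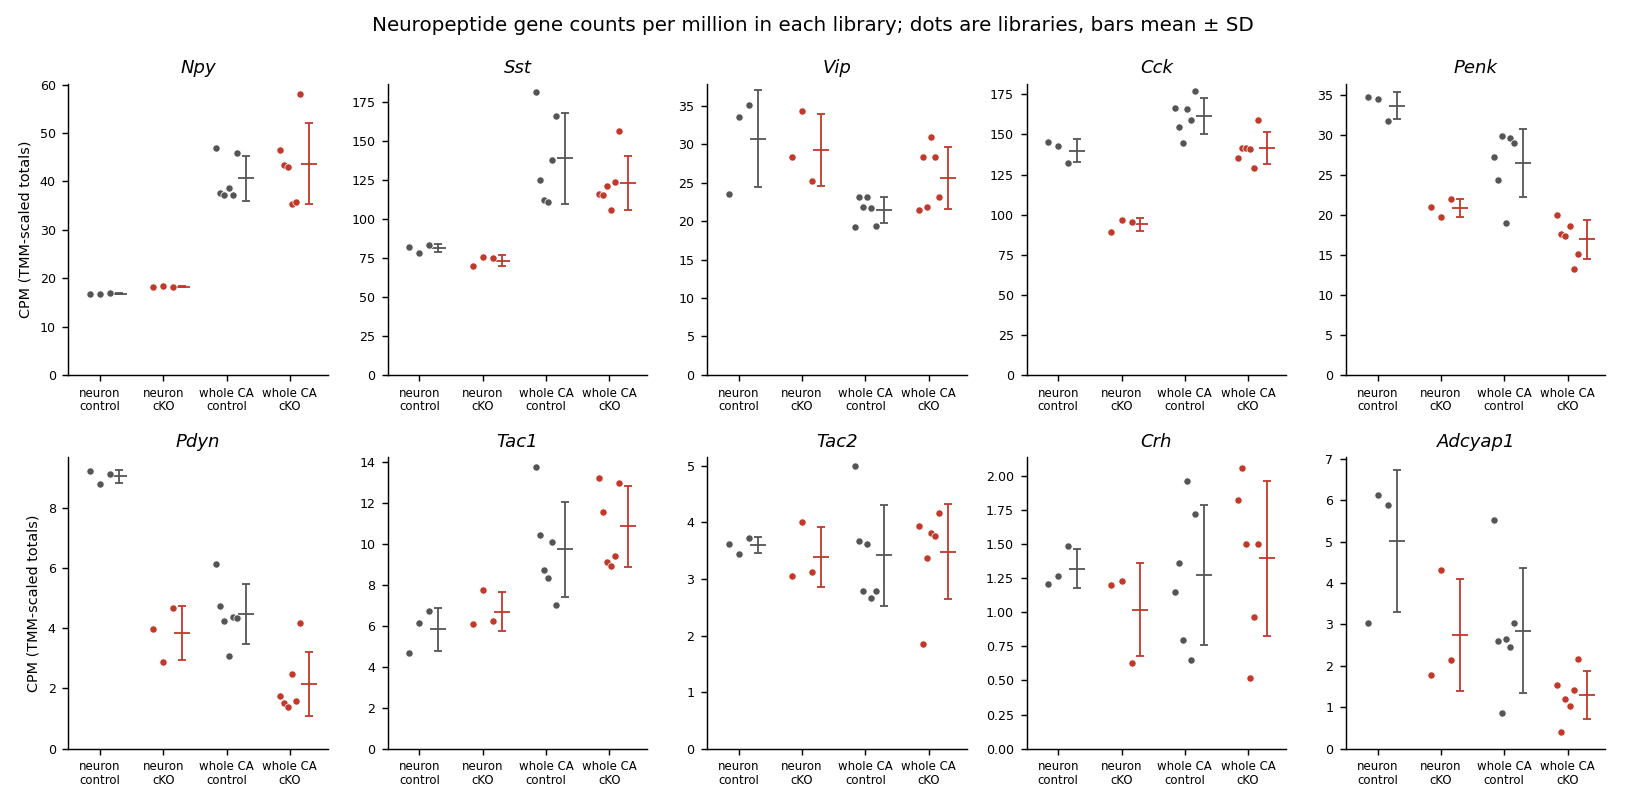
Level in CPM (vertical axis, TMM-scaled totals, from 0) of the 10 neuropeptide genes in each library of neuron RNA (3 per group) and whole CA RNA (6 per group); dots are libraries, with the mean and SD beside them, grey for control and red for cKO. For Cck, Penk and Pdyn in neuron RNA the red and grey dots do not overlap, with means of 93.9 against 140, 20.9 against 33.6 and 3.84 against 9.05 CPM.

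The 7 other genes did not pass the test in neuron RNA. Adcyap1, the PACAP precursor, had the widest spread: 3.04, 6.11 and 5.87 CPM in control libraries and 1.79, 4.3 and 2.14 CPM in those labelled cKO. Its second cKO library lay above its first control library, so the groups overlapped (log2 fold change -0.87, SE 0.34, interval of 2 SE from -1.55 to -0.19, unadjusted p = 0.0297, adjusted p = 0.241). Adcyap1 overlaps the RefSeq gene Gm32465.

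Among the genes typical of interneurons, Npy and Sst had groups that did not overlap but differed little. Npy, which encodes neuropeptide Y, measured 16.7, 16.8 and 16.9 CPM in control libraries and 18.2, 18.3 and 18.2 CPM in those labelled cKO (log2 fold change 0.12, SE 0.08, adjusted p = 0.49). Sst, which encodes somatostatin, measured 82.2, 78.3 and 83.6 CPM in control libraries and 69.6, 75.6 and 75.1 CPM in those labelled cKO (-0.15, SE 0.08, adjusted p = 0.372). The intervals of 2 SE were -0.04 to 0.28 for Npy and -0.3 to 0.01 for Sst, so changes as large as that of Pdyn lay outside them.

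Vip (vasoactive intestinal peptide), the tachykinin precursors Tac1 (substance P) and Tac2 (neurokinin B) and Crh (corticotropin-releasing hormone) all had overlapping groups in neuron RNA. Vip ranged from 23.5 to 35.1 CPM in control libraries and from 25.2 to 34.3 CPM in those labelled cKO (log2 fold change -0.07, SE 0.16, adjusted p = 0.858). Tac1 averaged 5.82 ± 1.06 CPM in control libraries and 6.69 ± 0.933 in those labelled cKO (0.20, SE 0.16, adjusted p = 0.553). Tac2 averaged 3.6 ± 0.139 and 3.39 ± 0.534 CPM (-0.08, SE 0.14, adjusted p = 0.791). Crh was the least counted, with 35 to 102 reads per neuron library, 1.32 ± 0.144 CPM in control libraries and 1.02 ± 0.342 CPM in those labelled cKO (-0.37, SE 0.25, adjusted p = 0.498). Its interval of 2 SE ran from -0.87 to 0.14, which takes in a fall as large as that of Penk.

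In whole CA RNA the opioid pair was lower again, and 2 of the 10 genes were called, Penk and Pdyn, against 4.17% of all genes tested (2.79% lower). Penk ranged from 18.9 to 29.8 CPM with a median of 28.1 in the 6 control libraries, and from 13.3 to 20 CPM with a median of 17.5 in the 6 labelled cKO. A single control library, replicate 4, reached into the cKO range. The mean was 26.5 ± 4.23 CPM (SD, n = 6) against 17 ± 2.43 CPM, 1.56-fold lower (log2 fold change -0.64, SE 0.11, adjusted p = 0.00185).

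Pdyn ranged from 3.06 to 6.14 CPM (median 4.35) in control whole CA libraries and from 1.38 to 4.17 CPM (median 1.67) in those labelled cKO. The groups overlapped through replicate 6 labelled cKO, at 4.17 CPM, and the other 5 were between 1.38 and 2.47 CPM. The mean was 4.48 ± 0.991 against 2.15 ± 1.06 CPM, 2.07-fold lower (log2 fold change -1.05, SE 0.24, adjusted p = 0.0145), and without replicate 6 labelled cKO the log2 fold change was -1.34 (adjusted p = 0.000265).

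Whole CA libraries were sequenced in 2 lanes, replicates 1 to 3 of both genotypes in the first and 4 to 6 in the second. Penk was lower by a similar amount in both, -0.57 (SE 0.11, adjusted p = 0.0231) in the first lane and -0.72 (SE 0.17, adjusted p = 0.0566) in the second. Pdyn differed more between lanes, -1.68 (SE 0.24, adjusted p = 0.00191) in the first and -0.53 (SE 0.3, adjusted p = 0.528) in the second, the lane that holds replicate 6 labelled cKO. With lane as a term in the fit the values were -0.65 for Penk (adjusted p = 0.0013) and -1.06 for Pdyn (adjusted p = 0.0141).

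Cck and Adcyap1 missed the threshold in whole CA RNA. Cck ranged from 145 to 177 CPM (median 162) in control libraries and from 129 to 159 CPM (median 141) in those labelled cKO (log2 fold change -0.19, SE 0.06, adjusted p = 0.0901). Adcyap1 ranged from 0.851 to 5.53 CPM (median 2.62) and from 0.398 to 2.17 CPM (median 1.31), on 6 to 82 reads per library (-1.11, SE 0.35, adjusted p = 0.0896). Without replicate 6 labelled cKO both were called (Cck -0.22, adjusted p = 0.0388; Adcyap1 -1.31, adjusted p = 0.0478), and Adcyap1 also without control replicate 3 (-1.30, adjusted p = 0.0182). Both were called too by DESeq2 (adjusted p = 0.049 for Cck and 0.0338 for Adcyap1) and in a fit blocked on the replicate number (0.0467 and 0.0334). Replicate numbers did not pair samples, so that block rests on no known pairing. Of 21 alternatives, Cck was called in 3 and Adcyap1 in 5. Neither was called with lane as a term in the fit (adjusted p = 0.0788 and 0.0863). The same held in the first lane alone (0.46 and 0.294) and in the second (0.341 and 0.255).

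The 6 genes left were not called in whole CA RNA, and their groups overlapped. Vip had the largest value with an upward sign, from 19.3 to 23.2 CPM (median 21.7) in control libraries and from 21.4 to 30.9 CPM (median 25.7) in those labelled cKO (log2 fold change 0.26, SE 0.10, adjusted p = 0.161). Npy ranged from 37.1 to 47 CPM against 35.3 to 58.1 CPM (0.11, SE 0.11, adjusted p = 0.719), and Sst from 111 to 182 CPM against 106 to 157 CPM (-0.17, SE 0.12, adjusted p = 0.526). Tac1 (0.16, SE 0.15), Tac2 (0.05, SE 0.19) and Crh (0.12, SE 0.32) had adjusted p-values of 0.679, 0.947 and 0.917. The median log2 fold change of the 10 genes was -0.06 in whole CA RNA, and over all genes tested it was 0.

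**Figure D2:**
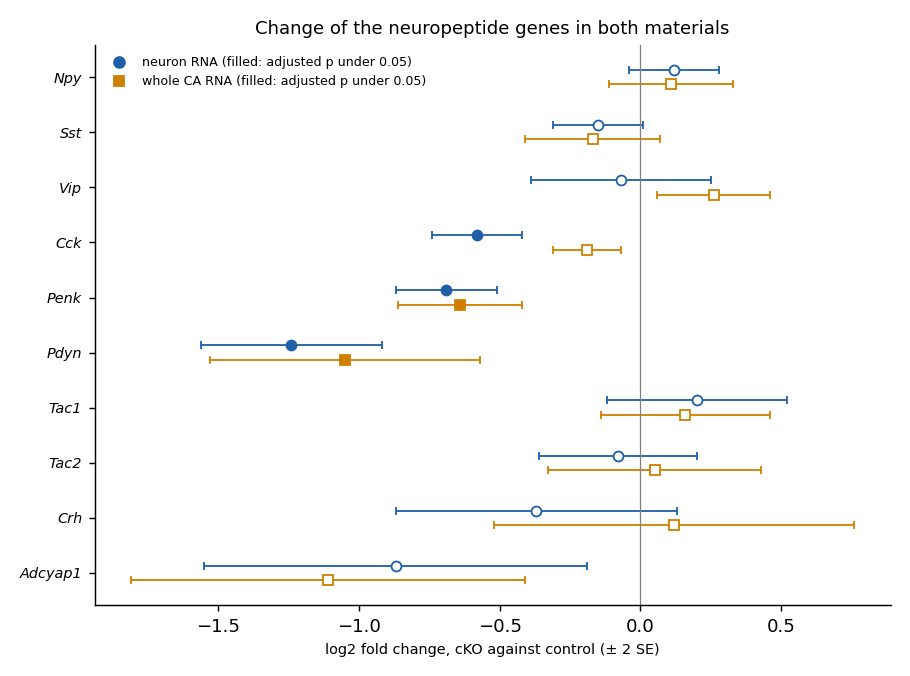
Log2 fold change of libraries labelled cKO over control (horizontal axis) for the 10 neuropeptide genes, with bars of 2 SE; circles are neuron RNA, squares whole CA RNA, and filled symbols have an adjusted p under 0.05. Penk (-0.69 and -0.64) and Pdyn (-1.24 and -1.05) are filled in both, Cck in neuron RNA only, where the difference between materials did not pass its own test.

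Penk and Pdyn were thus called lower in both materials, where 1.17% of the 14967 genes tested in both were. The change in neuron RNA and that in whole CA RNA were compared in 1 fit of all 18 RNA libraries. For none of the 10 genes did the difference pass the threshold, against 0.16% of all genes tested, and 1 had an unadjusted p under 0.05, as did 8.11% of all genes tested. That gene was Cck, whose change in neuron RNA was lower than that in whole CA RNA by a log2 difference of -0.38 (SE 0.10, interval of 2 SE from -0.58 to -0.18, unadjusted p = 0.000967, adjusted p = 0.232), and DESeq2 called it (adjusted p = 0.019). For Penk the difference was -0.03 (SE 0.17) and for Pdyn -0.18 (SE 0.33).

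In control libraries alone, 6 of the 10 genes differed between neuron RNA and whole CA RNA, a contrast in which 83% of all genes tested were called (39.8% lower and 43.2% higher in neuron RNA) and in which material, preparation and sequencing run cannot be told apart. Npy was 2.72-fold lower in neuron RNA (16.8 ± 0.115 CPM, n = 3, against 40.6 ± 4.57 CPM, n = 6; log2 fold change -1.45, SE 0.12, adjusted p = 1.6e-10). Sst (-0.95, SE 0.13, adjusted p = 6.03e-07), Tac1 (-0.91, SE 0.18, adjusted p = 4.99e-05) and Cck (-0.38, SE 0.07, adjusted p = 4.05e-05) were lower there as well. Pdyn was higher in neuron RNA (9.05 ± 0.225 against 4.48 ± 0.991 CPM; 0.84, SE 0.22, adjusted p = 0.00115), and so was Vip (0.34, SE 0.13, adjusted p = 0.0185). Vip was no longer called without control neuron replicate 2 (adjusted p = 0.0834) or 3 (0.143). Penk (0.17), Tac2 (-0.09), Crh (-0.11) and Adcyap1 (0.66) did not pass the test. With library size alone as the scale, every value moved up by 0.18, which turned Tac2 (0.09) and Crh (0.07) to the other sign and brought Penk (0.35, adjusted p = 0.00878) and Adcyap1 (0.84, adjusted p = 0.0307) past the threshold.

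Some markers of dentate granule and mossy cells, the former best known for Pdyn, fell beside the opioid genes. In neuron RNA 5 of 7 were called lower (Lct -1.56, Ghsr -1.36, Dsp -0.78, C1ql2 -0.76 and Tdo2 -0.70), and their summed level was 191 to 223 CPM in control libraries and 130 to 166 CPM in those labelled cKO. In whole CA RNA 2 of the 6 tested were called lower (Lct -1.86 and Dsp -0.96), and the sums were 81.2 to 117 CPM and 36.4 to 88.3 CPM. Prox1, a transcription factor of granule cells, was 75.2 ± 3.94 against 74.2 ± 7.83 CPM in neuron RNA (-0.02, adjusted p = 0.93) and 42.8 ± 5.18 against 33.6 ± 7.58 CPM in whole CA RNA (-0.35, adjusted p = 0.145). Drd2 was not called either (-0.38 and -0.03), nor were C1ql2 (-0.69) and Tdo2 (-0.60) in whole CA RNA. All 7 markers were detected in every library, and their part in the change of Penk and Pdyn was not tested. In such bulk libraries fewer cells of a type and less RNA per cell cannot be told apart.

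**Figure D3:**
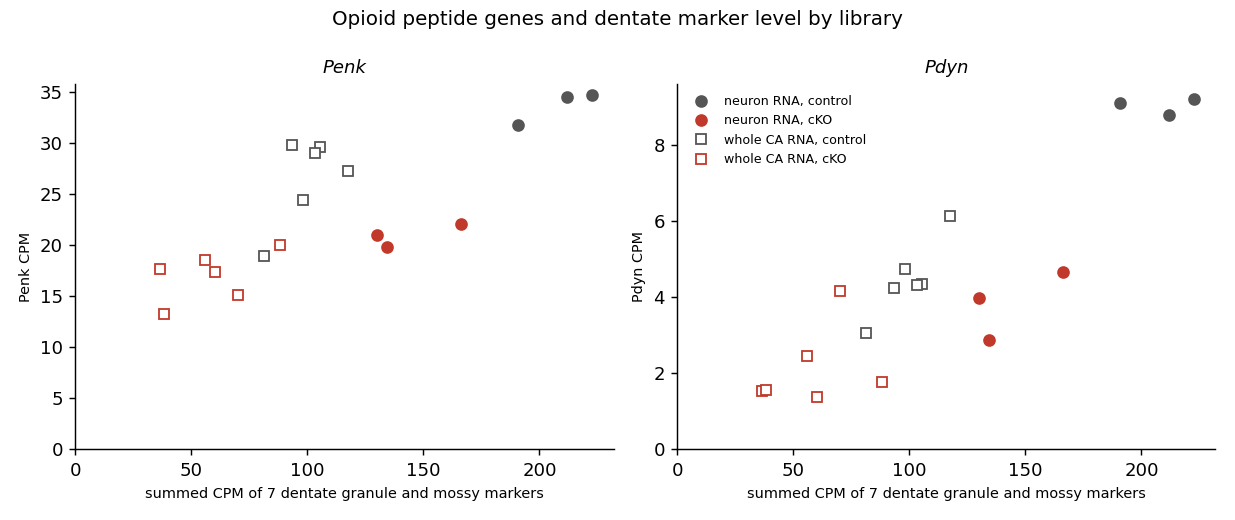
Penk (left) and Pdyn (right) in CPM (vertical axis) against the summed CPM of 7 dentate granule and mossy cell markers (horizontal axis), 1 symbol per library, filled circles for neuron RNA and open squares for whole CA RNA, grey for control and red for cKO. In neuron RNA the control libraries have marker sums of 191 to 223 CPM and those labelled cKO 130 to 166 CPM, and both genes are lower in the latter.

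Of 12 interneuron markers, none of them a gene described above, edgeR called 0 in either material (1 in each had an unadjusted p under 0.05), and their summed level overlapped between genotypes, 779 to 902 CPM in control and 809 to 1030 CPM in cKO neuron libraries, and 1000 to 1270 CPM against 1070 to 1210 CPM in whole CA RNA. Of 8 CA pyramidal markers, 2 were called lower in neuron RNA (Neurod6 -2.24 and Wfs1 -1.11) and 3 in whole CA RNA (Neurod6 -1.78, Wfs1 -0.43 and Grik4 -0.42). Their sums were 3210 to 3840 against 2760 to 3210 CPM in neuron RNA. In whole CA RNA Aqp4 of the astrocyte list (-0.38) and Cx3cr1 of the microglia list (-0.22) were also called lower. All 4 microglia markers had a negative sign there, and their sums were 244 to 303 CPM in control libraries and 218 to 241 CPM in those labelled cKO. All 5 astrocyte markers were negative there too, with sums of 1450 to 1730 against 1340 to 1490 CPM. The summed level of 4 choroid plexus markers was 26.9 to 29.1 against 13.1 to 14.9 CPM in neuron RNA and 29.5 to 37.1 against 16.9 to 21.2 CPM in whole CA RNA, and most of it was 1 gene, Kl (27.6 ± 1.33 against 13.1 ± 0.881 CPM in neuron RNA, -1.07; -1.04 in whole CA RNA), which was called lower in both. The other 3 were not: in neuron RNA Ttr averaged 0.105 CPM in both groups, Folr1 0.0467 against 0.0579 CPM and Kcne2 0.56 against 0.788 CPM (0.50, adjusted p = 0.483). The part of these markers in the changes described was not tested. No oligodendrocyte or endothelial marker was called.

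Among the receptors for these peptides, Sstr4, Npy2r and Sstr3 were lower in libraries labelled cKO in both materials. Of 19 receptor genes tested in neuron RNA 3 were called lower and none higher, and of 18 tested in whole CA RNA 4 were called lower and none higher; the medians were -0.17 and -0.06. Sstr4, a somatostatin receptor, was lowest, from 63.7 ± 12.6 to 16.2 ± 1.41 CPM in neuron RNA (log2 fold change -1.97, SE 0.14, adjusted p = 0.000129) and from 25 ± 2.04 to 8.44 ± 1.21 CPM in whole CA RNA (-1.57, adjusted p = 4.61e-09). Npy2r, a neuropeptide Y receptor found on presynaptic terminals, went from 66.5 ± 8.28 to 34.6 ± 0.173 CPM (-0.94, adjusted p = 0.000984) and from 75.8 ± 4.19 to 29.3 ± 4.01 CPM (-1.37, adjusted p = 1.86e-09). Sstr3, the somatostatin receptor of primary cilia, was lower in both materials too (-0.86, adjusted p = 0.00126, and -0.77, adjusted p = 2.79e-07). Tacr3, the neurokinin B receptor, was called in whole CA RNA (-0.71, adjusted p = 0.0178), with -0.30 and adjusted p = 0.576 in neuron RNA. Of their ligand genes, Sst, Npy and Tac2 were not called in either material, and Cort, whose product also binds somatostatin receptors, was called higher in whole CA RNA.

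**Figure D4:**
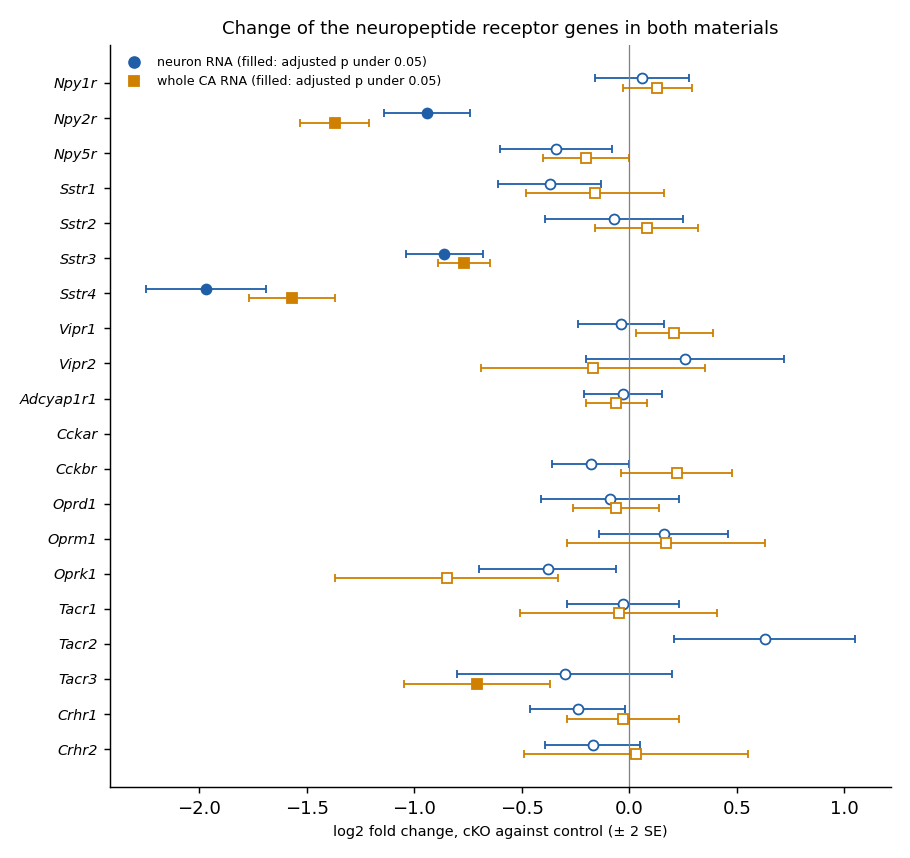
Log2 fold change of libraries labelled cKO over control (horizontal axis, bars of 2 SE) for 20 neuropeptide receptor genes in neuron RNA (circles) and whole CA RNA (squares); filled symbols have an adjusted p under 0.05, and a gene with no symbol was not tested there. Sstr4 (-1.97 and -1.57), Npy2r (-0.94 and -1.37) and Sstr3 (-0.86 and -0.77) are filled in both materials.

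The opioid, cholecystokinin and PACAP receptor genes named here did not pass the test in either material. For the opioid receptors, the kappa receptor gene Oprk1 had -0.38 in neuron RNA (adjusted p = 0.275) and -0.85 in whole CA RNA (adjusted p = 0.0821), the delta receptor gene Oprd1 -0.09 and -0.06, and the mu receptor gene Oprm1 0.16 and 0.17. The cholecystokinin receptor gene Cckbr had -0.18 in neuron RNA (adjusted p = 0.349) and 0.22 in whole CA RNA (adjusted p = 0.469). The PACAP receptor gene Adcyap1r1 had -0.03 and -0.06.

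Of 13 genes for peptide processing and dense-core vesicles, 1 was called lower in neuron RNA and 1 lower and 2 higher in whole CA RNA, with medians of -0.04 and 0.03. Chgb, a granin of the vesicle core, was lower in both (424 ± 40.5 to 309 ± 16.3 CPM in neuron RNA, log2 fold change -0.46, adjusted p = 0.0468; -0.44, adjusted p = 0.00169 in whole CA RNA). The convertase gene Pcsk1 (0.33, adjusted p = 0.038) and the granin gene Scg2 (0.22, adjusted p = 0.0383) rose in whole CA RNA, with 0.37 (adjusted p = 0.125) and 0.11 (adjusted p = 0.531) in neuron RNA. Of the other neuropeptide genes listed, 12 were tested in neuron RNA, where Vgf, a precursor of several secreted peptides, was lower (128 ± 17.1 to 88.2 ± 8.31 CPM, -0.53, adjusted p = 0.0416; 0.05 and adjusted p = 0.92 in whole CA RNA). In whole CA RNA 8 were tested, and Cort, the cortistatin gene, was higher (2.12 ± 0.67 to 4.4 ± 2.27 CPM, 1.06, adjusted p = 0.0472), with -0.12 and adjusted p = 0.781 in neuron RNA.

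For each called gene the 2 genes with the most similar pattern over the 18 RNA libraries were found among 14966 others, by the mean absolute difference of log2 CPM after centring each gene. For Cck these were Orai3 (0.096) and Fjx1 (0.102), for Penk Cntnap5b (0.125) and Olfml2b (0.141), and for Pdyn Fam160a1 (0.286) and Zmynd8 (0.324). The likeness is a description over libraries that share genotype and material, and none of the 10 neuropeptide genes was among these nearest genes.

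The promoters of the members were read from RefSeq (GRCm38.p6), which gave an entry for 8 of the 10, all but Penk and Crh. The 250 bases before the most upstream start in that promoter table are printed for Cck and Pdyn, which were lower in neuron RNA, and for Sst and Adcyap1, which were not called, 5′ to 3′ on the gene's strand. Capitals mark the half-site of the cAMP response element, TGACG on either strand, which in a full element, TGACGTCA, occurs on both strands and overlaps itself.
Cck: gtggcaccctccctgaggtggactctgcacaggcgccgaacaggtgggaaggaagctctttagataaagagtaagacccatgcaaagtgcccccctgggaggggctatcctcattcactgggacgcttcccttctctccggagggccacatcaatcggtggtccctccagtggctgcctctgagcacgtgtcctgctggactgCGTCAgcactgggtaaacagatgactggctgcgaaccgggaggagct
Pdyn: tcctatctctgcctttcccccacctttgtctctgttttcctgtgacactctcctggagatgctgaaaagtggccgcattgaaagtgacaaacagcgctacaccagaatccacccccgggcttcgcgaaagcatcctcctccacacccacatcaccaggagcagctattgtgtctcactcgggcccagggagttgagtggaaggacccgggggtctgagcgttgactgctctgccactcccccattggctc
Sst: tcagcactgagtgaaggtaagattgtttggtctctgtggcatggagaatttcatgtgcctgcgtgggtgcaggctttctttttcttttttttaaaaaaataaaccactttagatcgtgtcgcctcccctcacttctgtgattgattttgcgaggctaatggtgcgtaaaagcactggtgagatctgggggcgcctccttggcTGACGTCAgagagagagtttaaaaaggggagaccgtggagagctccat
Adcyap1: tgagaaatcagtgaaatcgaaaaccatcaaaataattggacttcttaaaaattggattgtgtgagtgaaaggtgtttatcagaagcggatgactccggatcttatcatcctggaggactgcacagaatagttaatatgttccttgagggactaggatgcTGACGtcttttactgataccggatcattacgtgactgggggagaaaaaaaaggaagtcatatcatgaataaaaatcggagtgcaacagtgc
These stretches are chr9:121495695-121495944 (minus strand) for Cck, chr2:129699939-129700188 (minus strand) for Pdyn, chr16:23890845-23891094 (minus strand) for Sst and chr17:93198767-93199016 (plus strand) for Adcyap1. The RefSeq intervals of Sst (chr16:23889573-23891342) and Adcyap1 (chr17:93198245-93206541) reach farther upstream than these starts, so their printed stretches lie within the gene intervals. The full element was found in Sst alone of the 8, starting 48 bases before the gene start, and in 1.55% of all 32817 promoters of this length. A half-site was found in 5 of the 8 (Sst, Vip, Cck, Tac1 and Adcyap1) and in 17.7% of all, and Cck held 1, starting 47 bases before the start. Npy, Pdyn and Tac2 held none in this window. CpG dinucleotides numbered 21 in Npy, 17 in Tac1, 9 in Cck, 8 in Pdyn, 8 in Sst, 7 in Adcyap1, 3 in Vip and 2 in Tac2, with a median of 6 over all promoters.

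Histone marks gave a readout of the same genes in sorted CA neuronal nuclei, with 24377163 to 41629252 tags per library after duplicates were removed. The length covered by the authors' peaks within 2500 bp of the gene starts was compared between genotypes for the 8 genes with a start in the promoter table. A test needed a peak in at least 3 libraries, which left 7 genes for each of the methylation marks, 4 for H3K27ac and 6 in the case of H3K9ac. None of those tested was called, where 23.2% of genes were called for H3K4me3 (22.2% lower), 2.25% for H3K4me1, 0.462% for H3K27ac and 0.836% for H3K9ac. Vip was tested for no mark and had no H3K4me3 peak in any of the 8 libraries, Npy, Sst and Tac1 were not tested for H3K27ac, and Sst was not tested for H3K9ac.

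For H3K4me3, 3 genes had lower coverage in every library labelled cKO than in any control library and missed the threshold. With an offset of 1000 bp Cck (adjusted p = 0.0356) and Adcyap1 (0.03) passed it. Pdyn (0.0346) passed it in a fit blocked on the replicate number, which rests on no known pairing of these libraries. Cck was covered over 3547, 3518, 3643 and 3497 bp in control libraries and 2758, 3222, 3295 and 3176 bp in those labelled cKO (log2 difference -0.19, SE 0.06, adjusted p = 0.0509). Adcyap1 went from 2730, 2667, 2689 and 2421 bp to 1618, 2349, 2236 and 1590 bp (-0.43, SE 0.13, adjusted p = 0.0525), and Pdyn from 1204, 1353, 1458 and 1795 bp to 956, 1180, 1090 and 1202 bp (-0.35, SE 0.12, adjusted p = 0.0721). Groups of this kind, with those labelled cKO below, made up 27.4% of all genes tested for H3K4me3. Tac1 had a value with the opposite sign (1418 ± 133 to 1697 ± 236 bp, 0.24, SE 0.11, adjusted p = 0.153), and Npy (0.01), Sst (0.02) and Tac2 (-0.09) differed little. Centring each library on its median moved all values up by 0.13, and Tac1 alone was then called (0.37, adjusted p = 0.0268). Of 13 alternatives, Cck was called in 2 (log2 differences from -0.22 to -0.05), Pdyn in 2 (-0.43 to -0.22) and Adcyap1 in 3 (-0.78 to -0.3). The highest adjusted p-values of these 3 genes were 0.355, 0.34 and 0.115.

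A wider window, the whole gene with 2500 bp on each side, took in all 10 genes and was added after the files were seen, because 2 promoters were missing. Of the 9 genes tested in it for H3K4me3, 1 was called, where 25.3% of all genes were called. That gene was Cck, over which the mark was lower in libraries labelled cKO. It covered 6273, 5941, 6074 and 6073 bp in control libraries and 3407, 3880, 4369 and 4020 bp in those labelled cKO, and the groups lay far apart. The mean fell from 6090 ± 137 to 3919 ± 398 bp (SD, n = 4 each; log2 difference -0.63, SE 0.07, adjusted p = 0.000694). The highest fold enrichment over input that the authors' caller gave to a peak there was 39.3 to 47 in control libraries and 23.3 to 33.1 in those labelled cKO. In the first sequencing lane, with 3 libraries per genotype, the difference was -0.64, and in the second, with 1 each, it was -0.58. The window also holds part of Gm38661.

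Penk had 1608, 1708, 2057 and 1423 bp of H3K4me3 in control libraries and 1219, 1468, 1264 and 1470 bp in those labelled cKO over the whole gene, an overlap through control replicate 4 (log2 difference -0.30, SE 0.11, adjusted p = 0.091). Its H3K27ac coverage was 1177, 810 and 771 bp in the 3 control libraries and 185, 237, 339 and 356 bp in the 4 labelled cKO, with no overlap (-1.43, SE 0.22, adjusted p = 0.0702). Near gene starts, groups with those labelled cKO below made up 10.7% of all genes tested for H3K27ac. That share was not computed for whole genes. Pdyn had 1601, 1042 and 801 bp of H3K27ac in control libraries and 302, 356, 0 and 0 bp in those labelled cKO (-2.54, SE 0.64, adjusted p = 0.196). It met the filter of a peak in at least 3 libraries only with its control libraries. Both missed the threshold over all genes, of which 0.333% were called, and their size depends on the offset of 100 bp: with 1000 bp it was -0.58 for Penk (adjusted p = 0.101) and -0.88 for Pdyn (adjusted p = 0.103). For Cck, H3K27ac had the opposite sign over the same window (7083 ± 672 to 8034 ± 320 bp, 0.18, SE 0.10, adjusted p = 0.431). Lower coverage was not limited to the opioid genes. Tac2, not called in RNA, went from 2120, 1544 and 1467 bp to 1084, 1287, 1169 and 891 bp. Its groups did not overlap either (-0.58, SE 0.17, adjusted p = 0.233). Npy, not tested for this mark, had 615, 0 and 192 bp in control libraries and 0 bp in those labelled cKO.

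**Figure D5:**
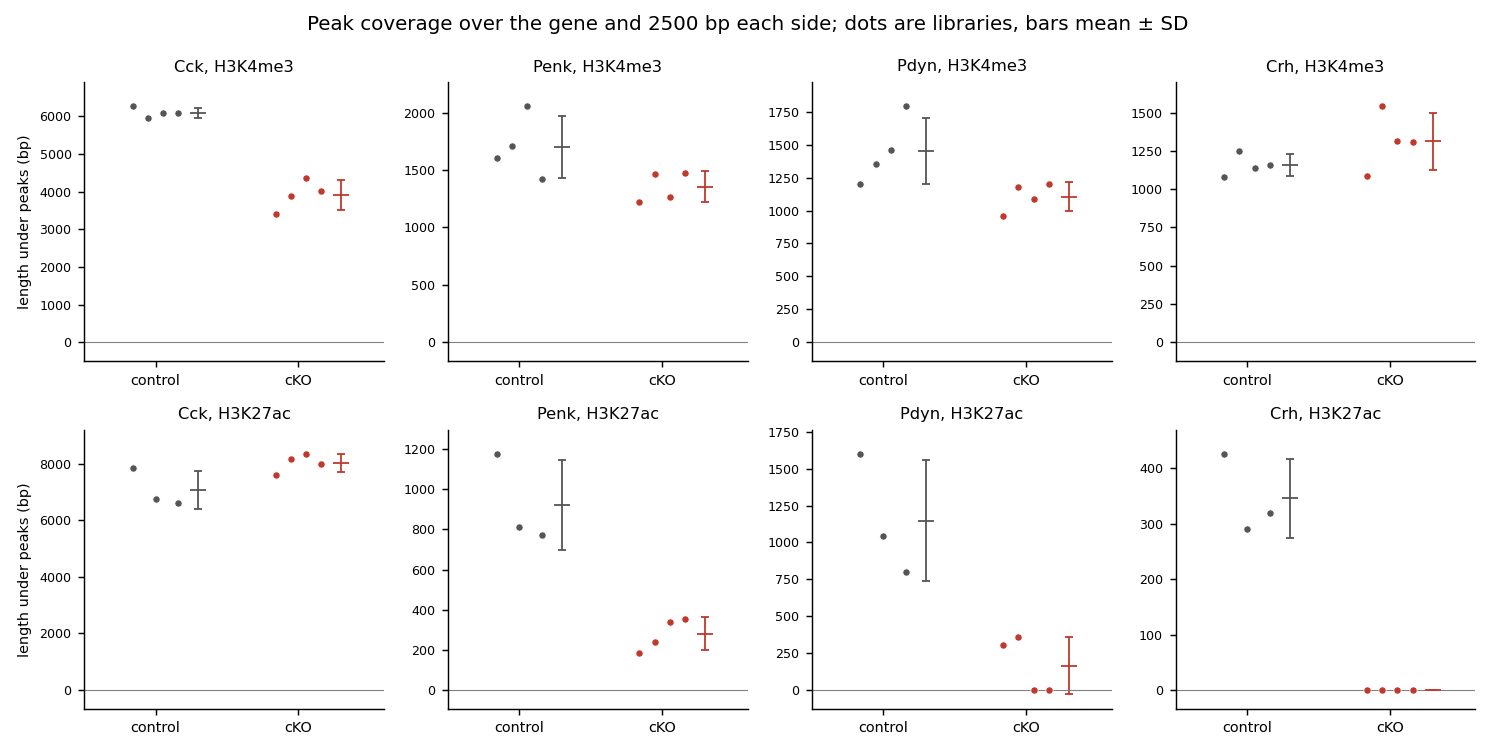
Length under peaks in bp (vertical axis) over the whole gene with 2500 bp on each side for Cck, Penk, Pdyn and Crh, H3K4me3 in the upper row and H3K27ac in the lower; dots are libraries of sorted CA neuronal nuclei, with mean and SD beside them, grey for control and red for cKO. H3K4me3 over Cck is 5941 to 6273 bp in control libraries and 3407 to 4369 bp in those labelled cKO, and H3K27ac over Crh is 0 bp in all 4 labelled cKO.

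Crh had 426, 291 and 319 bp of H3K27ac peaks over the whole gene in the 3 control libraries and none in the 4 labelled cKO. It entered the H3K27ac test only through the control libraries, since a peak in at least 3 libraries was required, so its call is given no weight; of the 6 genes tested for this mark no other was called. The control peaks were weak, with a highest -log10 q-value of 2.08, 5.35 and 2.56 and fold enrichments of 2.97, 4.44 and 3.04. Over whole genes none of the 9 genes tested was called for H3K4me1 (6.39% of all genes called) and none of the 8 tested for H3K9ac (0.302%). The Crh window holds parts of Trim55 and Gm42189. H3K4me3 over Crh was 1156 ± 71.7 bp in control libraries and 1312 ± 188 bp in those labelled cKO (0.16, SE 0.10, adjusted p = 0.281).

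H3K9ac over the Adcyap1 starts was 940, 665, 481 and 734 bp in control libraries and 165, 199 and 0 bp in the 3 labelled cKO, without overlap, as for 13.6% of all genes with those labelled cKO below (log2 difference -1.98, SE 0.41, adjusted p = 0.0971). An offset of 1000 bp brought it past the threshold (-0.60, adjusted p = 0.0384). Adcyap1 met the filter of a peak in at least 3 libraries only with its control libraries, so that call is given no weight. For H3K4me1, Cck was covered more in every library labelled cKO (3956, 4439, 4265 and 4096 bp against 2617, 3520, 2696 and 1225 bp within 2500 bp of the start; 0.80, SE 0.29, adjusted p = 0.22). Groups with those labelled cKO above made up 5.96% of all genes for this mark. Cck was called in a window of 1000 bp (0.98, adjusted p = 0.000555). Over the whole Cck gene with 2500 bp on each side, H3K4me1 differed little. It covered 6840 ± 2070 bp in control libraries and 6540 ± 547 bp in those labelled cKO (-0.02, SE 0.21, adjusted p = 0.974). Peaks in every library of a genotype were called against the same input, so for any mark the inputs and the genotypes cannot be told apart.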

How the data were processed

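RNA files as deposited by the authors hold whole-number read counts per Ensembl gene, 1 file per library; whole CA files also list rows for reads outside genes, all at 0 (0% of counts) and left out; aligner, counting tool and strand setting are not given in the sources used here, and libraries were made with the TruSeq RNA v2 kit per the labels' protocols. Symbols were matched through the supplied gene table for 99.26% of neuron and 98.94% of whole CA identifiers. Peak lists were called by the authors per library with MACS 2.1.0.20140616 (2.1.1.20160309 for H3K4me3) at a q-value of 0.1, broad for H3K4me1 only, per the file headers. These lists give each peak's length, its −log10 q-value and its fold enrichment over input (a ratio) as deposited. The build is mm10 (GRCm38), per the submitters' processing notes, which also name SAMtools, and GRCm38.p6 positions come from RefSeq.

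Counts were tested with edgeR 4.0.16 (R 4.3.3; quasi-likelihood, TMM, filterByExpr), per material, with the difference of effects and the control contrast in 1 fit of 18 libraries; p-values were adjusted by Benjamini-Hochberg over all genes tested and called under 0.05. SE is the log2 fold change over the root of F. The length under peaks was tested with limma 3.58.1 on log2(bp + 100), for genes with a peak in at least 3 libraries. DESeq2 1.42.0 was an alternative. Scripts were tested on simulated data. The whole-gene window was added after the files were seen. Exon lengths were not used here, so levels are not compared between genes. All columns were mapped to samples. Replicate numbers did not pair samples, so no block is in the fits.

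Members, gene lists and alternatives were chosen with earlier results of these data known. All 10 members are named; genes of other lists are named with values where called, at most 6 per list and comparison by adjusted p, and receptors of members that were called and markers that were not called were named in addition after their values were seen; Setd1b is named as the targeted gene.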

Additional observations from a re-analysis of the deposited data

Results flagged for a closer look

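Of 80 groups of 4 or 6 libraries of the 10 genes (RNA levels in whole CA, peak coverage over the whole gene), 6 held a library far from the others, where chance gives about 5%. The 80 include groups with 0 bp in every library, which could not be flagged, so the share among the rest is higher. In whole CA RNA, Sst was 157 CPM in replicate 6 labelled cKO, with the other 5 between 106 and 124.1 CPM, and Tac2 was 1.86 CPM in replicate 2 labelled cKO, with the others between 3.362 and 4.172 CPM. Replicate 6 labelled cKO was also highest of its group for Npy, Cck, Pdyn, Tac2 and Adcyap1, but not for Penk, Vip, Tac1 or Crh. The 10 genes summed to 437.1 CPM there and to 347.7 to 364.2 CPM in the other 5. Control libraries had sums of 363.1 to 472.8 CPM. Among control ChIP-seq libraries, H3K4me3 over Adcyap1 covered 4720 bp in replicate 4 (others 5125 to 5192 bp), over Sst 856 bp in replicate 3 (550 to 594 bp) and over Tac2 322 bp in replicate 3 (458 to 467 bp). H3K9ac over Crh covered 331 bp in control replicate 4, with the others at 474 to 501 bp.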

How the results depend on the processing

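In neuron RNA Cck, Penk and Pdyn were called under all 12 alternatives (3 genes each time), while over all genes 539 were called, with 930 at an adjusted p under 0.1, 833 by DESeq2, 327 with the replicate block and 207 to 482 without 1 library. In whole CA RNA 2 genes were called, 4 at an adjusted p under 0.1, by DESeq2 and with the replicate block, 0 in the second lane alone, and 2 to 4 without 1 library (4 without cKO replicate 6); over all genes 640 were called, 207 in the first lane and 224 in the second. In the second lane Penk (-0.72) and Pdyn (-0.53) lost their calls. For the difference of effects 0 genes were called and 1 by DESeq2, and over all genes 28, with 69 unfiltered and 79 by DESeq2. For control neuron over control whole CA RNA 6 were called, and 5 to 7 without 1 library; no paired analysis was possible for it because nothing links libraries of the 2 materials. For H3K4me3 near starts 0 genes were called, 2 with an offset of 1000 bp, 1 after centring, 1 with the replicate block (Pdyn) and 0 to 2 without 1 library; over whole genes 1, with 3 after centring, 2 with the replicate block and 1 to 2 without 1 library. H3K4me1 near starts had 0, and 1 in the window of 1000 bp. H3K9ac had 0, near starts and over whole genes, and 1 in each with an offset of 1000 bp. That gene was Adcyap1, which met the filter only with its control libraries. H3K27ac over whole genes had 1 (Crh, tested only through its control peaks), 0 at a -log10 q of at least 5, with an offset of 1000 bp or with the replicate block, and 0 to 1 without 1 library. Over all genes, near starts, the window of 1000 bp gave 217 calls in place of 3493 for H3K4me3, 178 in place of 419 for H3K4me1, 45 in place of 69 for H3K27ac and 41 in place of 129 for H3K9ac. At a -log10 q of at least 5 there were 276 for H3K4me1, with an offset of 1000 bp 4 for H3K27ac and 267 for H3K9ac, and with the replicate block 12 for H3K4me1 and 0 for both acetylation marks. Over whole genes H3K4me1 went from 1107 to 462 at the stricter q, 3079 after centring and 537 with the block, H3K27ac from 51 to 5 with the offset, 82 after centring and 0 with the block, and H3K9ac from 48 to 295, 176, 216 and 0 in the order stricter q, offset, centring, block. The replicate numbers shared only a number: same-numbered libraries correlated at -0.057 to 0.286 in neuron RNA, while whole CA libraries had -0.064 to 0.203.

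No called value changed sign, and those that did were all uncalled on both sides; the cause was not tested. In the first lane Tac2 in whole CA RNA was -0.30, and in the second Crh was -0.52. With library size only, Tac2 (0.09) and Crh (0.07) turned in the control contrast. In the window of 1000 bp Npy H3K4me3 (-0.03) and Adcyap1 H3K4me1 (-0.01) turned. At the stricter q, H3K4me1 was 2.94 for Npy, 3.12 for Pdyn and 2.20 for Tac1 in both windows, and whole-gene H3K9ac of Crh was -0.25. After centring, near starts, Tac2 had 0.05 for H3K4me3 and 0.06 for H3K27ac, Tac1 0.01 for H3K4me1 and Cck 0.05 for H3K9ac; over whole genes Tac2 had 0.06 for H3K4me3, and H3K4me1 was 0.12 for Npy, 0.14 for Cck, 0.07 for Penk and 0.14 for Tac1. Without 1 library, Vip in neuron RNA ranged from -0.23 to 0.03, and in whole CA RNA Crh from -0.02 to 0.30 and Tac2 from -0.02 to 0.18. The difference of effects ranged from -0.09 to 0.16 for Tac1, -0.24 to 0.48 for Adcyap1, -0.10 to 0.04 for Penk, -0.03 to 0.12 for Npy, -0.34 to 0.11 for Pdyn and -0.05 to 0.11 for Sst. The control contrast ranged from -0.16 to 0.04 for Tac2 and -0.25 to 0.06 for Crh. In both windows H3K4me3 ranged from -0.04 to 0.15 for Sst, -0.09 to 0.17 for Npy and -0.20 to 0.03 for Tac2. H3K4me1 ranged from -0.06 to 0.03 for Tac1 and -0.12 to 0.04 for Npy in both windows, -0.01 to 0.31 for Tac2 near the start, and over whole genes -0.20 to 0.15 for Cck, -0.05 to 0.09 for Tac2 and -0.09 to 0.15 for Crh. H3K27ac ranged from -0.70 to 0.19 for Adcyap1 and -0.14 to 0.05 for Tac2 near starts and from -1.47 to 0.21 for whole-gene Adcyap1. H3K9ac ranged from -0.32 to 0.05 for Npy in both windows, and near starts from -0.07 to 0.13 for Tac2 and -0.05 to 0.03 for Cck. Low counts limit Adcyap1 and Crh in whole CA RNA, at 6 to 82 and 10 to 32 reads per library.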
